A study of Mus musculus with 15 samples.

Results

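The heme and iron handling genes described here are 10 mouse genes chosen by symbol: Hmox1, Hmox2, Blvra, Blvrb, Slc40a1, Tfrc, Slc11a2, Fth1, Ftl1 and Ireb2. Each had 1 row among the 11551 genes that the authors' 4 deposited tables hold together. Those tables list only genes past the authors' own adjusted p in at least 1 comparison, so every share of all genes called below is over a set chosen for change, and adjustment is over that set. RNA was sequenced from 15 libraries of mouse Abelson pre-B cells, early B-lineage cells made to grow by the viral kinase v-Abl. All cultures received imatinib, an inhibitor of that kinase, for 48 h. There were 5 groups with 3 libraries in each. Rag_SPIC_tet_NoDOX cells are labelled Rag -/- and carry a construct labelled SPIC_tet, by its name inducible by doxycycline, which was not given. Rag_SPIC_tet_DOX cells are the same line with doxycycline, and Rag_SPIC_tet_DOX_shBCLAF1 cells carry in addition a hairpin labelled shBCLAF1. Art cells lack Artemis, the nuclease that opens hairpin-sealed DNA ends after Rag cleavage, and Art_shBCLAF1 cells carry the shBCLAF1 hairpin as well. Artemis status, Rag status, line and construct all differ between Art and Rag_SPIC_tet_NoDOX, so they cannot be told apart. No label names doxycycline without the SPIC_tet construct, so effects of doxycycline and of SPIC cannot be told apart either. No label names a control hairpin, and no label says whether a line is 1 clone or whether the 3 libraries of a group were separate cultures. The p-values therefore measure only the spread between these samples, which may be technical.

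Heme oxygenase opens the heme ring and frees its iron, biliverdin and carbon monoxide, and biliverdin reductase turns biliverdin into bilirubin. Iron enters most cells bound to transferrin, is stored inside the ferritin shell, and leaves through ferroportin. Iron regulatory proteins bind a small RNA hairpin, the iron-responsive element, when iron is scarce. Bound in a leader it blocks translation, and bound in a tail it protects the messenger from decay. SPIC is an ETS-family transcription factor best known from red pulp macrophages of the spleen, the cells that recycle the iron of old red blood cells and express much Hmox1 and Slc40a1.

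Letters of an iron-responsive element were found in 4 of the 10 genes and are shown because they lie in the leader of the exporter and ferritins and in the tail of the uptake receptor. The search asked for an unpaired C, a stem of 5 pairs (G with T allowed) and the loop CAGTGN on the transcript strand, in the untranslated parts of coding transcripts of GENCODE M21. Slc40a1, Fth1 and Ftl1 held it 1 time each in the leader, and Tfrc held it 4 times in the tail. Of 21877 genes scanned, 0.142% held the pattern in a leader and 0.590% in a tail. The loop is in capitals and each run is read 5′ to 3′ along the transcript, with T for U.
Slc40a1 leader: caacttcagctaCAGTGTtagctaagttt
Fth1 leader: ttcctgcttcaaCAGTGCttgaacggaac
Ftl1 leader: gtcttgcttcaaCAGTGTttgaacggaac
Tfrc tail, site A: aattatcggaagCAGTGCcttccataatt
Tfrc tail, site B: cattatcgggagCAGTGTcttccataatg
Tfrc tail, site C: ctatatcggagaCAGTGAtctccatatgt
Tfrc tail, site D: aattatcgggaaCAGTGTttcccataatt
In the GRCm38 build of that annotation they lie at chr1:45925465-45925493 (minus strand) for Slc40a1, chr19:9982732-9982760 (plus) for Fth1 and chr7:45459779-45459807 (minus) for Ftl1. Those of Tfrc lie on the plus strand at chr16:32631219-32631247, chr16:32631598-32631626, chr16:32631663-32631691 and chr16:32631710-32631738. A match is a description of letters, and RNA levels do not measure translation. Hmox1, Hmox2, Blvra, Blvrb, Slc11a2 and Ireb2 held no match to these letters. An element with a mismatch in the stem or with another loop would have been missed, so no match does not mean no element.

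Levels are given as log2 CPM (CPM: reads scaled to a common library size), in which the authors added 0.5 to the reads and scaled by effective library size. Effective library sizes lay between 17244952 and 27096207 reads except for Art replicate 3, which had 5813343 reads and 145 genes at 0 reads against 19 to 56 elsewhere. The labels were checked on Bclaf1, the gene the hairpin is named for. Its mean was 7.73 ± 0.04 (SD, n = 3) in Rag_SPIC_tet_DOX and 8.04 ± 0.06 in Rag_SPIC_tet_DOX_shBCLAF1, a rise of 0.32 (limma adjusted p = 0.00537). In Art it was 7.32 ± 0.79 and in Art_shBCLAF1 8.32 ± 0.03, a difference of 0.99 (limma adjusted p = 0.0679). Without Art replicate 3 that difference was 0.54 (limma adjusted p = 6.2e-06). The hairpin's target was thus not lower, and the phrase "libraries labelled shBCLAF1" is used below. The labels do not say which Rag gene is deleted or which part of it: Rag1 had 18801 to 20868 reads and Rag2 1004 to 1242 in Rag_SPIC_tet_NoDOX, so reads of both genes were present under the label Rag -/-. Cd79a and Pax5, which mark B cells, were at group means from 8.03 to 10.59. Of 20 macrophage markers 11 were in the tables, and their summed CPM was 144 to 231 in all libraries against 6017 to 13638 for 11 B-lineage markers, Rag1 among them. The B-lineage sum had a median of 12410 in Art and 6134 in Art_shBCLAF1. Of 18 erythroid markers 4 were in the tables, with a summed CPM of 6.11 to 43.6. Klf1 had 4 to 21 reads. The globin gene Hbb-bt, singled out after its values were seen, had 2 to 5 reads in Rag_SPIC_tet_NoDOX and 187 to 243 in Rag_SPIC_tet_DOX_shBCLAF1. It had 0 to 4 in Art and 304 to 471 in Art_shBCLAF1. Tal1, singled out likewise, had 56 to 66 reads in Rag_SPIC_tet_NoDOX, 115 to 229 in Rag_SPIC_tet_DOX and 677 to 891 in Rag_SPIC_tet_DOX_shBCLAF1. It had 40 to 231 in Art, the 40 in replicate 3, and 128 to 178 in Art_shBCLAF1. The part of these marker changes in the results below was not tested. In bulk RNA, fewer cells of a type and less RNA per cell cannot be told apart.

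**Figure D1:**
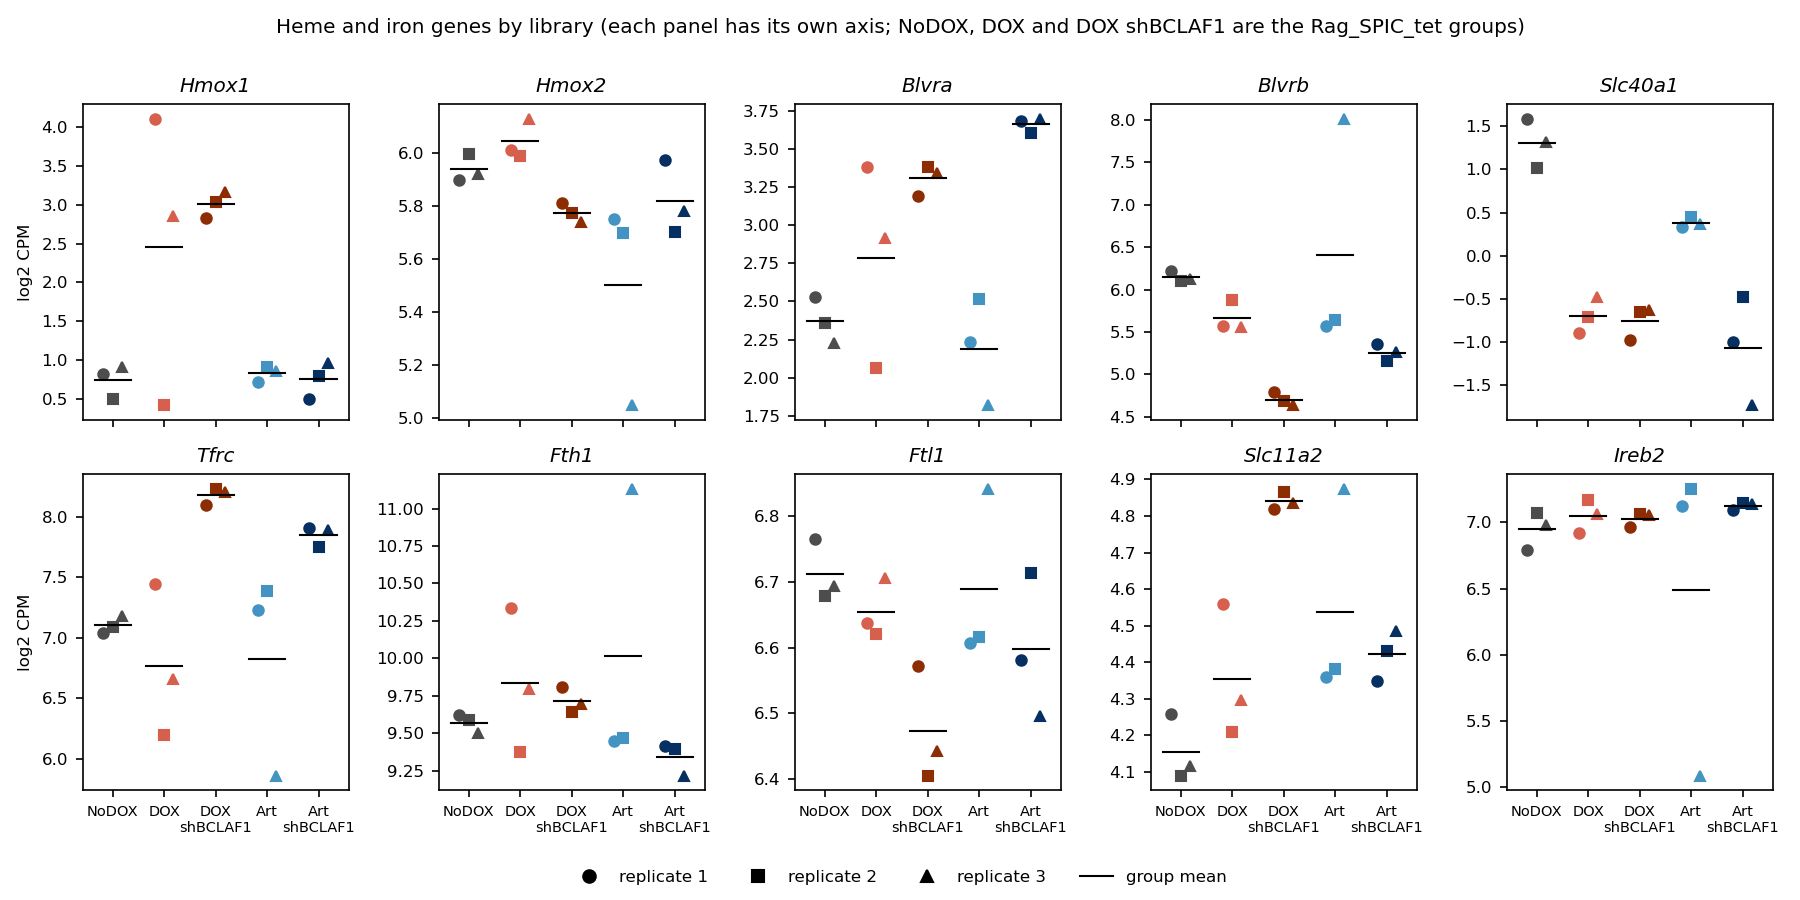
Level of each of the 10 genes in log2 CPM (vertical axes, scaled per gene) in the 15 libraries, by group on the horizontal axis; symbols mark replicate numbers and black lines group means. Hmox1 ranges from 0.41 to 4.11 within Rag_SPIC_tet_DOX, and Art replicate 3 stands apart in Blvrb, Fth1, Tfrc and Ireb2.

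A gene was called at a limma adjusted p below 0.05, adjusted over all 11551 genes. In Rag_SPIC_tet_DOX against Rag_SPIC_tet_NoDOX, 2 of the 10 genes were called, both lower, where 11.8% of all genes were called. In Rag_SPIC_tet_DOX_shBCLAF1 against Rag_SPIC_tet_DOX, 4 were called against 53.6% of all genes, 2 higher and 2 lower. In Art_shBCLAF1 against Art, 2 were called against 49.0%, 1 in each direction. In Art against Rag_SPIC_tet_NoDOX none of the 10 was called by limma against 5.14% of all genes; 1 had an unadjusted p below 0.05, and limma with voom weights also called 0. The difference between the effects of the hairpin label in the Art and Rag_SPIC_tet_DOX lines was called for 1 gene, Slc40a1, against 31.3%. These shares do not set the genes apart from the rest of the tables. The 4 comparisons share groups: Rag_SPIC_tet_NoDOX, Rag_SPIC_tet_DOX and Art each enter more than 1.

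Of the 10 genes, 3 had groups that did not overlap in Art against Rag_SPIC_tet_NoDOX (37.9% of all genes did), 2 in Rag_SPIC_tet_DOX against Rag_SPIC_tet_NoDOX (40.7%), 5 in Rag_SPIC_tet_DOX_shBCLAF1 against Rag_SPIC_tet_DOX (66.1%) and 5 in Art_shBCLAF1 against Art (65.6%). Calls depended on libraries that stand apart. Without Art replicate 3, 5 of the 10 were called in Art against Rag_SPIC_tet_NoDOX, where 47.4% of all genes then were, and 4 in Art_shBCLAF1 against Art, beside 80.1%. The difference between the hairpin-label effects was then called for 4, beside 54.4%. Without Rag_SPIC_tet_DOX replicate 2, 5 were called against Rag_SPIC_tet_NoDOX, beside 39.6%, and 5 in Rag_SPIC_tet_DOX_shBCLAF1 against Rag_SPIC_tet_DOX, beside 56.2%. Without Rag_SPIC_tet_DOX replicate 3, or without Rag_SPIC_tet_NoDOX replicate 1 or 3, limma called 0 of the 10 in Rag_SPIC_tet_DOX against Rag_SPIC_tet_NoDOX, where it called 0.502%, 0.104% and 0.130% of all genes.

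**Figure D2:**
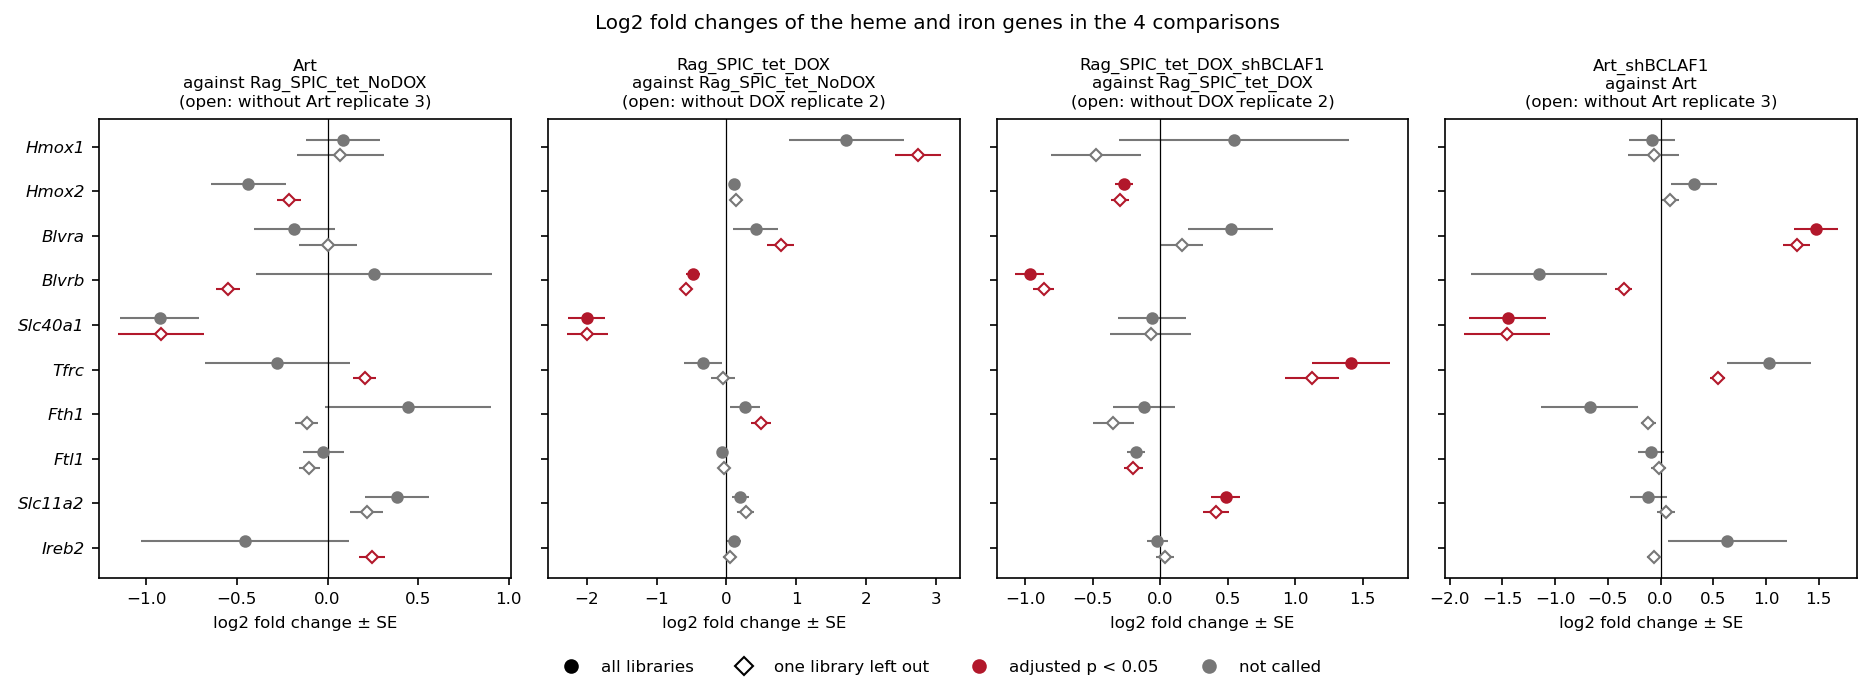
Log2 fold change with its standard error (horizontal axes, scaled per panel) of the 10 genes in the 4 comparisons, with all libraries (filled circles) and without the named library (open diamonds); red marks a limma adjusted p below 0.05. Slc40a1 sits at -2.00 in Rag_SPIC_tet_DOX against Rag_SPIC_tet_NoDOX with all libraries and at -1.99 without replicate 2, whereas Hmox1 moves from 1.72 to 2.74.

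Hmox1 encodes the inducible heme oxygenase. It was at 0.82, 0.50 and 0.91 log2 CPM in Rag_SPIC_tet_NoDOX and at 4.11, 0.41 and 2.86 in Rag_SPIC_tet_DOX, which is 400, 29 and 156 reads. In Rag_SPIC_tet_DOX_shBCLAF1 it was at 2.82, 3.04 and 3.16. Both doxycycline-treated groups thus held libraries above every untreated one of that line, but replicate 2 of Rag_SPIC_tet_DOX lay below all 3 untreated libraries. Art was at 0.72, 0.91 and 0.85, and Art_shBCLAF1 at 0.50, 0.80 and 0.96, so both Artemis-deficient groups overlapped Rag_SPIC_tet_NoDOX.

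With all libraries, Hmox1 differed by 1.72 (SE 0.82) between Rag_SPIC_tet_DOX and Rag_SPIC_tet_NoDOX, which did not pass (limma adjusted p = 0.181). Without replicate 2 of Rag_SPIC_tet_DOX the difference was 2.74 (SE 0.33, limma adjusted p = 0.000296), and without replicate 1 it was 0.89 (limma adjusted p = 0.330). The authors' deposited table lists 2.02 with an adjusted p of 1.57e-06. Against Rag_SPIC_tet_DOX, the libraries labelled shBCLAF1 differed by 0.55 (SE 0.86, limma adjusted p = 0.611), and by -0.48 without Rag_SPIC_tet_DOX replicate 2 (limma adjusted p = 0.255). In Art_shBCLAF1 against Art the difference was -0.08 (SE 0.22, limma adjusted p = 0.791). Spic itself was at 0.87, 0.18 and 1.41 in Rag_SPIC_tet_NoDOX, at 3.72, 4.59 and 4.31 in Rag_SPIC_tet_DOX and at 7.50, 7.43 and 7.44 in Rag_SPIC_tet_DOX_shBCLAF1. In Art it was at 0.85, 0.32 and 0.16 and in Art_shBCLAF1 at 4.47, 4.34 and 4.80. Spic thus rose with doxycycline by 3.38, and with the hairpin label by 3.25 in the Rag line and 4.10 in the Art line (limma adjusted p = 0.00607, 0.00022 and 0.000135), so each label effect reported here was measured beside a change in Spic. The Spic levels of Rag_SPIC_tet_DOX and Art_shBCLAF1 overlapped. Hmox1 had 400, 29 and 156 reads in the first, with the 29 in the library of highest Spic, and 32, 32 and 35 in the second. Line, doxycycline and hairpin label also differ between these groups and cannot be told apart. The part of Spic in the Hmox1 values was not tested.

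Hmox1 was not alone in varying within Rag_SPIC_tet_DOX. Hmox1, Blvra, Tfrc, Fth1 and Slc11a2 all ran highest in replicate 1 and lowest in replicate 2, an order that 33.5% of all genes showed. Myc followed it too, at 8.06, 3.76 and 6.83, and Spic ran the other way. Among macrophage markers, Cd68 had 563, 120 and 275 reads and Csf1r 158, 54 and 116, again in that order, whereas Adgre1 had 49, 58 and 64. Hbb-bt had 128, 3 and 57 reads, also in the order of Hmox1. The summed CPM of the 11 macrophage markers was 231, 180 and 186. In Rag_SPIC_tet_DOX_shBCLAF1, where Hmox1 had 160 to 242 reads, Cd68 had 192 to 227 reads, Csf1r 9 to 14 and Adgre1 2 to 3. The summed CPM there was 144 to 150, with Ctss, singled out after its values were seen, at 2530 to 2920 reads. Against Rag_SPIC_tet_DOX, 0 of the 11 markers were called higher and 9 lower by limma, beside 53.6% of all genes. The median log2 fold change of that list was -2.48. With doxycycline 1 marker was called higher and 0 lower, beside 11.8%. Without Rag_SPIC_tet_DOX replicate 2 that became 6 higher and 1 lower, beside 39.6%. The part of other cells, or of any other difference between these libraries, in the Hmox1 values was not tested.

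**Figure D3:**
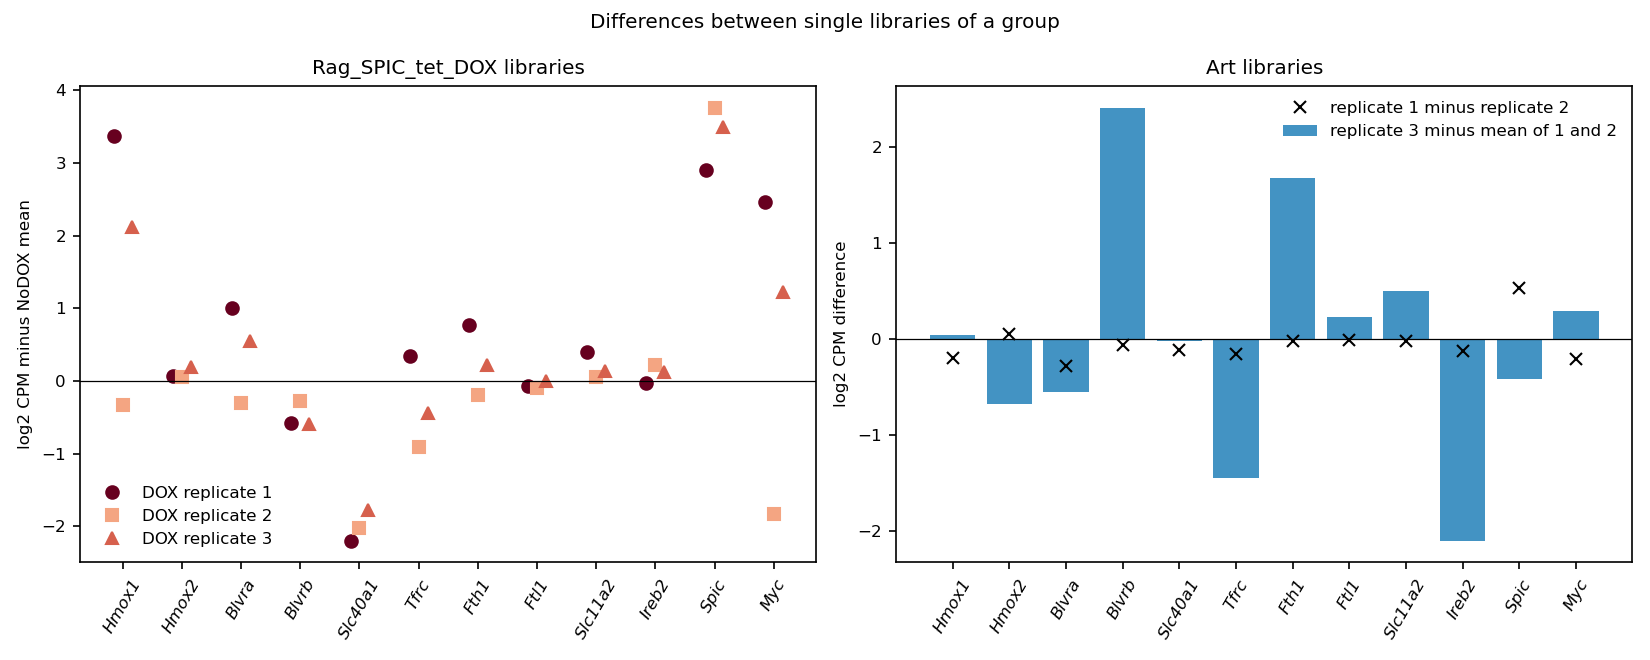
Left, log2 CPM of each Rag_SPIC_tet_DOX library minus the Rag_SPIC_tet_NoDOX mean for the 10 genes, Spic and Myc; right, Art replicate 3 minus the mean of Art replicates 1 and 2 (bars) beside replicate 1 minus replicate 2 (crosses). Hmox1 spans -0.33 to 3.37 on the left, and on the right Blvrb reaches 2.41 and Ireb2 -2.10.

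Genes whose centred levels lay nearest to those of Hmox1 over the 15 libraries were Lhfpl1, Apbb2, 1810055G02Rik, Mta3 and Mfsd13a. Their root-mean-square differences from it were 0.37, 0.46, 0.49, 0.51 and 0.52 on the log2 scale. Mean Lhfpl1 was 1.18 in Rag_SPIC_tet_NoDOX, 3.37 in Rag_SPIC_tet_DOX, 3.23 in Rag_SPIC_tet_DOX_shBCLAF1, 1.86 in Art and 1.59 in Art_shBCLAF1.

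Hmox2, the constitutive heme oxygenase, was the more abundant of the pair per length of transcript. Its group means were 4.71 to 5.25 in log2 CPM per kilobase, against 0.09 to 2.36 for Hmox1. Its libraries lay between 5.05 and 6.13 log2 CPM in all, and neighbours in the order of group means overlapped throughout. It changed by -0.27 (SE 0.06) in Rag_SPIC_tet_DOX_shBCLAF1 against Rag_SPIC_tet_DOX, from 6.01, 5.99 and 6.13 to 5.81, 5.77 and 5.74 (limma adjusted p = 0.0135). That call was lost without replicate 2 or replicate 3 of the libraries labelled shBCLAF1 (limma adjusted p = 0.0596 and 0.0612). In Art against Rag_SPIC_tet_NoDOX the groups did not overlap, and the difference of -0.44 (limma adjusted p = 0.284) became -0.21 without Art replicate 3 (limma adjusted p = 0.0124).

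Blvra and Blvrb encode the biliverdin reductases, Blvrb also acting as a flavin reductase. With the hairpin label, Blvra was called higher in the Art line and Blvrb lower in the Rag line. Blvra was at 2.23, 2.51 and 1.82 in Art and at 3.69, 3.60 and 3.70 in Art_shBCLAF1, so every labelled library lay above every other of that line. It rose by 1.48 (SE 0.21, limma adjusted p = 0.00207), and by 1.29 without Art replicate 3. In Rag_SPIC_tet_NoDOX it was at 2.53, 2.36 and 2.23, in Rag_SPIC_tet_DOX at 3.38, 2.06 and 2.91 and in Rag_SPIC_tet_DOX_shBCLAF1 at 3.19, 3.38 and 3.35. Those last 2 groups overlapped, and the difference of 0.52 (SE 0.32) did not pass (limma adjusted p = 0.203). For that difference the authors' deposited table lists 0.43 with an adjusted p of 2.86e-05. The test of whether the Blvra effect differed between the lines gave 0.95 (SE 0.41, limma adjusted p = 0.0981), and 1.32 without Rag_SPIC_tet_DOX replicate 2 (limma adjusted p = 0.00613). Without that replicate Blvra rose by 0.78 in Rag_SPIC_tet_DOX against Rag_SPIC_tet_NoDOX (limma adjusted p = 0.0101).

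Blvrb fell with each step in the Rag-deficient line. It was at 6.22, 6.10 and 6.13 in Rag_SPIC_tet_NoDOX, at 5.57, 5.88 and 5.56 in Rag_SPIC_tet_DOX, and at 4.79, 4.68 and 4.64 in Rag_SPIC_tet_DOX_shBCLAF1. No neighbouring pair of these groups overlapped. The first step was a change of -0.48 (SE 0.10, limma adjusted p = 0.0309), a call lost without Rag_SPIC_tet_DOX replicate 3 or without any 1 of the 3 Rag_SPIC_tet_NoDOX libraries (limma adjusted p = 0.0821 to 0.141). The second was -0.97 (SE 0.11, limma adjusted p = 0.000959). In the Artemis-deficient line it was at 5.57, 5.64 and 8.02 in Art and at 5.35, 5.15 and 5.26 in Art_shBCLAF1. Replicate 3 of Art thus decided the value there: the difference was -1.15 (SE 0.65, limma adjusted p = 0.186) with it and -0.35 without it (limma adjusted p = 0.00178). Against Rag_SPIC_tet_NoDOX, Art differed by 0.26 with replicate 3 (limma adjusted p = 0.829) and by -0.55 without it (limma adjusted p = 1.72e-06). The authors' deposited table lists -0.53 for that comparison. Per kilobase of transcript, Blvrb group means were 4.66 to 6.37 in log2 CPM and those of Blvra 1.97 to 3.45.

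Slc40a1 encodes ferroportin, the iron exporter. It was called lower with doxycycline and in Art_shBCLAF1 against Art, at low read counts throughout. In Rag_SPIC_tet_NoDOX it was at 1.59, 1.02 and 1.32 log2 CPM (53, 36 and 44 reads), and in Rag_SPIC_tet_DOX at -0.89, -0.71 and -0.48 (12, 13 and 15 reads). In Rag_SPIC_tet_DOX_shBCLAF1 it was at -0.98, -0.65 and -0.63, with 11 to 17 reads. All 6 doxycycline-treated libraries lay below all 3 untreated ones, and the 2 treated groups overlapped.

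With doxycycline Slc40a1 changed by -2.00 (SE 0.26, limma adjusted p = 0.00905). The call did not hold without Rag_SPIC_tet_DOX replicate 3 (-2.11, limma adjusted p = 0.0557) or without Rag_SPIC_tet_NoDOX replicate 1 or 3 (-1.86 and -2.00, limma adjusted p = 0.0775 and 0.0777). Without Rag_SPIC_tet_DOX replicate 2, whose Hmox1 was low, the change was -1.99 (limma adjusted p = 0.000832). The further difference of -0.06 (SE 0.25) with the hairpin label did not pass (limma adjusted p = 0.852).

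In Art, Slc40a1 was at 0.33, 0.45 and 0.37 (32, 23 and 7 reads), and in Art_shBCLAF1 between -1.73 and -0.47 (11, 13 and 5 reads). The groups did not overlap. The change was -1.45 (SE 0.37, limma adjusted p = 0.0184), and it was lost without Art replicate 2 or Art_shBCLAF1 replicate 1 (limma adjusted p = 0.0542 and 0.0591). The effect of the label in the Art line minus that in the Rag line was -1.39 (SE 0.45, limma adjusted p = 0.0365). Leaving out 1 library at a time ended that call in 9 of 12 fits, with differences from -1.06 to -1.69. Art lay between Rag_SPIC_tet_NoDOX and the other groups and overlapped neither: its difference from Rag_SPIC_tet_NoDOX was -0.93 (SE 0.22, limma adjusted p = 0.0713), and -0.92 without Art replicate 3 (limma adjusted p = 0.00363).

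Nearest to Slc40a1 in centred level were Ache, Car11, Rapgef3, Plxnb3 and Micall2, with root-mean-square differences of 0.34, 0.39, 0.40, 0.40 and 0.40. Ache, at higher levels, had group means of 4.89 in Rag_SPIC_tet_NoDOX, 4.41 in Art, 3.16 in Rag_SPIC_tet_DOX, 2.87 in Rag_SPIC_tet_DOX_shBCLAF1 and 2.57 in Art_shBCLAF1. That order of groups is the order of the Slc40a1 means.

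Tfrc encodes transferrin receptor, the main port of iron entry in dividing cells. It was at 7.44, 6.20 and 6.66 in Rag_SPIC_tet_DOX and at 8.10, 8.23 and 8.20 in Rag_SPIC_tet_DOX_shBCLAF1. Uninduced cells, at 7.04, 7.09 and 7.18, lay within the range of Rag_SPIC_tet_DOX. With the hairpin label it rose by 1.41 (SE 0.29, limma adjusted p = 0.00785), and by 1.13 without Rag_SPIC_tet_DOX replicate 2. Art_shBCLAF1 was at 7.91, 7.75 and 7.89, above all Art libraries at 7.23, 7.38 and 5.86. That difference was 1.03 (SE 0.40, limma adjusted p = 0.0743) with Art replicate 3 and 0.54 without it (limma adjusted p = 3.09e-05). The 2 groups labelled shBCLAF1 had the highest Tfrc means, 8.18 and 7.85, and overlapped no other group. Doxycycline alone gave a difference of -0.34 (limma adjusted p = 0.412), and -0.67 without Rag_SPIC_tet_DOX replicate 1 (limma adjusted p = 0.0185). For doxycycline the authors' deposited table lists -0.47 with an adjusted p of 4.57e-06.

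Myc, which is high in growing cells, stood beside these values at 9.13 to 9.29 in Rag_SPIC_tet_DOX_shBCLAF1 and 8.68 to 8.89 in Art_shBCLAF1. In Rag_SPIC_tet_NoDOX it was at 5.41 to 5.77 and in Art at 3.87 to 4.26. The part of Myc or of growth in the Tfrc values was not tested.

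Slc11a2 encodes the divalent metal transporter that carries iron out of the endosome. Its libraries in Rag_SPIC_tet_DOX_shBCLAF1 were at 4.82, 4.87 and 4.84, above Rag_SPIC_tet_DOX at 4.56, 4.21 and 4.30. It rose there by 0.48 (SE 0.11, limma adjusted p = 0.00974). In Art_shBCLAF1 against Art it differed by -0.12 (SE 0.18, limma adjusted p = 0.614). The test of whether the effect differed between the lines gave -0.60 (SE 0.21, limma adjusted p = 0.0511). Without Art replicate 3 that difference was -0.43 (limma adjusted p = 0.0204), and without Art replicate 1, Art replicate 2 or Rag_SPIC_tet_DOX replicate 1 it was -0.69, -0.68 and -0.70 (limma adjusted p = 0.0372, 0.0418 and 0.0319).

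Fth1 and Ftl1 encode the heavy and light ferritin chains. Both genes have many processed copies in the genome, and how reads shared with such copies were assigned is unknown here, so their values are uncertain. Fth1 lay between 9.22 and 10.33 in 14 libraries and at 11.13 in Art replicate 3. In Rag_SPIC_tet_DOX it was at 10.33, 9.38 and 9.79, around the uninduced 9.62, 9.59 and 9.50. None of the 4 comparisons called Fth1 with all libraries in the fit without library weights. Without Rag_SPIC_tet_DOX replicate 2 it rose by 0.49 with doxycycline (limma adjusted p = 0.0199). The authors' deposited table lists 0.26 for doxycycline, with an adjusted p of 0.00249. In Art_shBCLAF1 against Art the groups did not overlap, with a difference of -0.67 (SE 0.46, limma adjusted p = 0.265) that was -0.11 without Art replicate 3.

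Ftl1 was the steadiest of the 10, with all 15 libraries between 6.41 and 6.84. Rag_SPIC_tet_DOX_shBCLAF1 was lowest, at 6.57, 6.41 and 6.44, without overlap with Rag_SPIC_tet_DOX at 6.64, 6.62 and 6.71. The difference of -0.18 (SE 0.07) did not pass (limma adjusted p = 0.0554), but passed without Rag_SPIC_tet_DOX replicate 1 or 2 (limma adjusted p = 0.0495 and 0.0480). For that difference the authors' deposited table lists -0.25 with an adjusted p of 8.56e-06. Per kilobase of transcript the group means were 8.76 to 9.44 in log2 CPM for Fth1 and 6.52 to 6.76 for Ftl1.

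Ireb2 encodes iron regulatory protein 2, which binds the hairpins printed above. Its libraries lay between 6.79 and 7.25 except Art replicate 3, at 5.09. No comparison called Ireb2 with all libraries in the fit without library weights. Without Art replicate 3 it was 0.24 higher in Art than in Rag_SPIC_tet_NoDOX (limma adjusted p = 0.00995), where with that replicate the difference was -0.46 (limma adjusted p = 0.661). The authors' deposited table lists 0.21 for that comparison, with an adjusted p of 0.0107. Neighbours in the order of its group means all overlapped.

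Art replicate 3 was more than 1 log2 unit from the mean of Art replicates 1 and 2 in 4 of the 10 genes, as it was in 25.8% of all genes. Its differences were 2.41 for Blvrb, 1.68 for Fth1, -2.10 for Ireb2 and -1.45 for Tfrc. Replicates 1 and 2 differed by at most 0.28 in any of the 10 genes. Hmox1 and Slc40a1 in replicate 3 were within 0.04 of the other mean, on 10 and 7 reads.

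Promoters of 7 of the 10 genes, 12 in all, were in the RefSeq table of GRCm38.p6, which gives 250 bases before to 50 after each start. They were searched on both strands for TGACNNNGC, the core of the antioxidant response element that BACH1 and NRF2 bind, for GAGGAA, the ETS core of PU.1 and SPIC sites, and for CACGTG, the E-box of MYC. Among all 32851 promoters of the table, 12.4%, 28.3% and 7.15% held these letters. Blvra held the first on the minus strand, starting 49 bases before the start, and Ireb2 held the second at 2 places; the others held no match to these letters. The stretch around the match in Blvra, within the promoter at chr2:127070407-127070706 on the plus strand, is shown because Blvra rose in Art_shBCLAF1, with the matched bases in capitals.
Blvra promoter: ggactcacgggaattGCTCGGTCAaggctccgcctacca
A match is a description of letters and not a site of binding. Hmox1, Slc40a1 and Slc11a2 had no entry.

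Related genes were read from lists written from general knowledge, with the 10 genes kept out of them. Among 8 tested genes of heme synthesis, 2 rose and 2 fell in Rag_SPIC_tet_DOX_shBCLAF1 against Rag_SPIC_tet_DOX, and 3 rose and 1 fell in Art_shBCLAF1 against Art, where 53.6% and 49.0% of all genes were called. Alad, the second enzyme of the path, rose by 0.86 and 0.92 (limma adjusted p = 0.00365 and 0.0314). Ppox, which acts late in the path, fell, by log2 values of -0.63 with doxycycline (limma adjusted p = 0.0230) and -1.12 in Art_shBCLAF1 against Art (limma adjusted p = 0.00265). Erythroid cells make much heme: the summed CPM of the 4 erythroid markers was 6.11 to 6.64 in Rag_SPIC_tet_NoDOX, 7.63 to 17.2 in Rag_SPIC_tet_DOX, 39.9 to 43.6 in Rag_SPIC_tet_DOX_shBCLAF1, 8.64 to 10.7 in Art and 24.5 to 29.7 in Art_shBCLAF1. The sum does not show single genes. With the hairpin label, 1 of the 4 was called higher and 0 lower in the Rag line, beside 53.6% of all genes. These became 2 higher and 0 lower without Rag_SPIC_tet_DOX replicate 2, beside 56.2%. In the Art line 1 was called higher and 1 lower, beside 49.0%, and 2 higher and 1 lower without Art replicate 3, beside 80.1%. Mean Tal1 was 2.94 log2 CPM in Rag_SPIC_tet_DOX, 4.99 in Rag_SPIC_tet_DOX_shBCLAF1, 2.95 in Art and 2.87 in Art_shBCLAF1. Mean Epor was 0.32, 0.16, 0.46 and -0.99 in the same order. Gata1 had no row, and the part of these markers in the heme genes was not tested.

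Of 10 tested genes of heme transport and binding, 4 rose and 3 fell in Rag_SPIC_tet_DOX_shBCLAF1 against Rag_SPIC_tet_DOX, and 4 rose and 4 fell in Art_shBCLAF1 against Art, beside the same 53.6% and 49.0% of all genes. Lrp1, a receptor that takes up heme bound to hemopexin, fell at each step, by log2 values of -1.02 with doxycycline, -1.49 with the label in that line and -2.28 in Art_shBCLAF1 against Art (limma adjusted p = 0.00891, 0.000592 and 0.000739). Abcb6, a porphyrin transporter, rose by 1.38 and 1.47 with the label in the Rag and Art lines (limma adjusted p = 0.00567 and 0.0227). Flvcr1, a heme exporter, rose by 1.13 in Rag_SPIC_tet_DOX_shBCLAF1 against Rag_SPIC_tet_DOX (limma adjusted p = 0.00055).

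Among 13 tested genes of iron uptake, transport and storage, 4 fell with doxycycline, and 6 rose and 3 fell in Rag_SPIC_tet_DOX_shBCLAF1 against Rag_SPIC_tet_DOX. In Art_shBCLAF1 against Art, 5 rose and 3 fell. The shares of all genes called in these comparisons were 11.8%, 53.6% and 49.0%. Tfr2, a second transferrin receptor, had 131 to 191 reads in Rag_SPIC_tet_NoDOX, 61 to 77 in Rag_SPIC_tet_DOX and 25 to 28 in Rag_SPIC_tet_DOX_shBCLAF1. It changed by -1.51 at each of these steps and by -4.52 in Art_shBCLAF1 against Art (limma adjusted p = 0.00891, 0.000911 and 0.000157). Its label effect in the Art line minus that in the Rag line was -3.01 (limma adjusted p = 0.000139), while Tfrc, the main receptor, was highest in these labelled groups. Steap4, a metal reductase, had 18 to 30 reads in Rag_SPIC_tet_NoDOX, 8 to 12 in Rag_SPIC_tet_DOX, 20 to 98 in Art and 0 to 1 in both groups labelled shBCLAF1. Slc25a37, which carries iron into mitochondria, changed by -0.74 with doxycycline (limma adjusted p = 0.00673). Its mean was 6.19 in Rag_SPIC_tet_DOX and 7.39 in Rag_SPIC_tet_DOX_shBCLAF1, and 7.27 in Art and 6.92 in Art_shBCLAF1. Its label effect in the Art line minus that in the Rag line was -1.55 (limma adjusted p = 0.000233). Without Rag_SPIC_tet_DOX replicate 2, 4 genes of this list rose and 5 fell with doxycycline, beside 39.6% of all genes; in Art against Rag_SPIC_tet_NoDOX, 1 rose, and 4 rose and 4 fell without Art replicate 3, beside 47.4%.

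**Figure D4:**
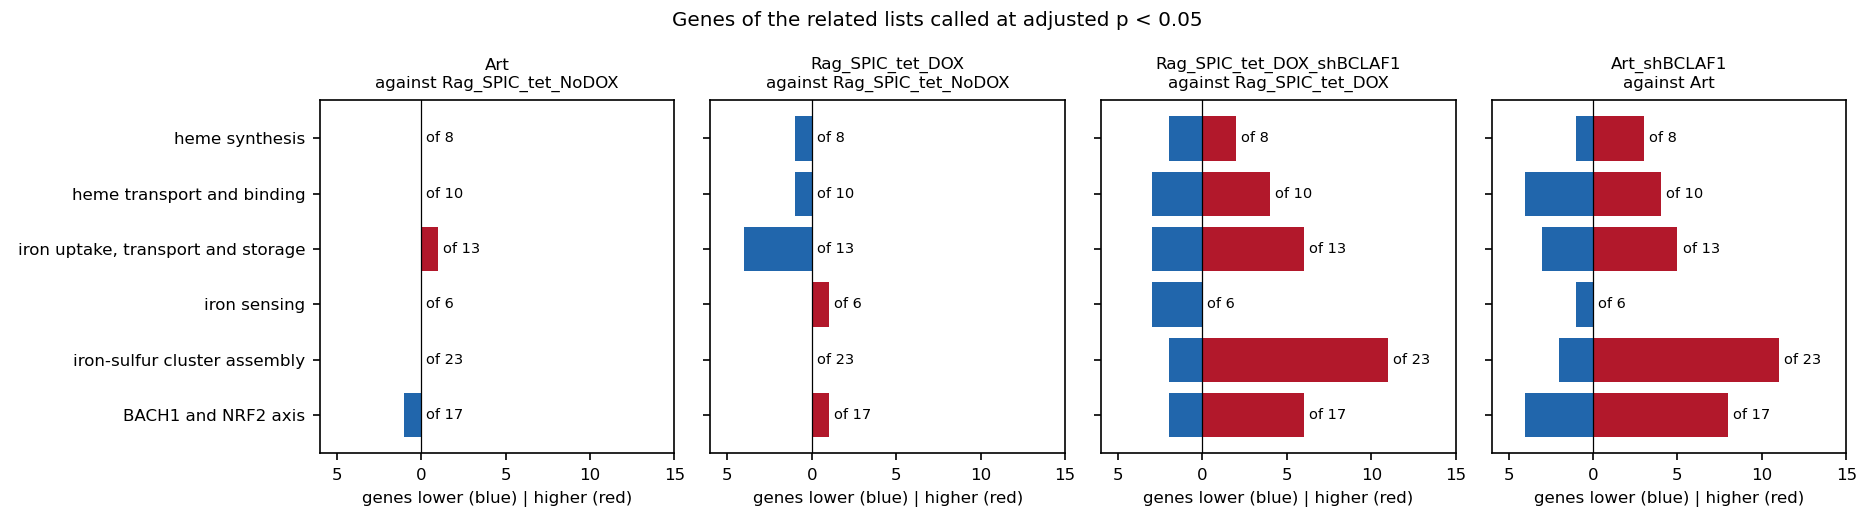
Number of genes called higher (red, right) and lower (blue, left) at a limma adjusted p below 0.05 in 6 related lists, in the 4 comparisons; the label beside each bar is the number tested. Iron-sulfur cluster assembly has 11 genes higher and 2 lower in both comparisons of libraries labelled shBCLAF1, where 53.6% (Rag line) and 49.0% (Art line) of all genes were called.

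Iron-sulfur cluster assembly, a main use of iron in mitochondria, had 11 genes higher and 2 lower of 23 tested in each of the comparisons by hairpin label, beside 53.6% of all genes in the Rag line and 49.0% in the Art line. Of all genes, 3290 were called higher and 2896 lower in the Rag line, and 2884 and 2780 in the Art line. The list medians were 0.34 in the Rag line and 0.52 in the Art line, beside 0.05 for all genes in both. Hspa9, the mitochondrial chaperone of this path, rose by 1.24 and 2.70, Fdxr by 1.04 and 1.50 and Bola3 by 1.27 and 1.46. Without Rag_SPIC_tet_DOX replicate 2 the first Fdxr value was 0.68 (limma adjusted p = 0.0108). In Art against Rag_SPIC_tet_NoDOX and in Rag_SPIC_tet_DOX against Rag_SPIC_tet_NoDOX, limma called 0 of the 23, with 3 and 6 at an unadjusted p below 0.05. Without the library that stands apart, Art replicate 3 or Rag_SPIC_tet_DOX replicate 2, these became 4 higher and 5 lower, and 5 higher and 1 lower, beside 47.4% and 39.6% of all genes. Without Art replicate 3, 17 rose and 3 fell in Art_shBCLAF1 against Art, where 80.1% of all genes were called.

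Genes of the BACH1 and NRF2 axis, the factors that repress and drive Hmox1 elsewhere, had 6 higher and 2 lower of 17 tested in Rag_SPIC_tet_DOX_shBCLAF1 against Rag_SPIC_tet_DOX, and 8 higher and 4 lower in Art_shBCLAF1 against Art, beside 53.6% and 49.0% of all genes. Gsr, glutathione reductase, rose by 2.17 and 3.02 (limma adjusted p = 0.0045 and 8.33e-05). Gclm, a subunit of the enzyme that starts glutathione synthesis, rose by 0.57 with doxycycline, by 1.15 with the label in that line and by 1.76 in Art_shBCLAF1. With doxycycline Gclm was the 1 gene of the list called, and 7 rose and none fell without Rag_SPIC_tet_DOX replicate 2, beside 39.6% of all genes. Hmox1 in Art_shBCLAF1 stayed at 32 to 35 reads beside these values. The genes of the 2 factors were looked up after their values were seen. Nfe2l2, which encodes NRF2, was at 8.26 ± 0.25 (SD, n = 3) in Rag_SPIC_tet_DOX and 7.38 ± 0.05 in Rag_SPIC_tet_DOX_shBCLAF1. In Art it was at 7.71 ± 0.48 and in Art_shBCLAF1 at 7.13 ± 0.27. Bach1 was at 6.23 ± 0.20, 6.16 ± 0.03, 6.39 ± 0.13 and 5.44 ± 0.09 in the same order. Of 6 tested iron-sensing genes, 3 fell in Rag_SPIC_tet_DOX_shBCLAF1 against Rag_SPIC_tet_DOX, among them Aco1, the other iron regulatory protein, at -0.41 (limma adjusted p = 0.00445).

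Centring each library on its own median lowered all log2 fold changes of Art_shBCLAF1 against Art by 0.23. Of all genes called there, 50.9% were higher without centring and 37.5% with it. The calls of Blvra and Slc40a1 in that comparison held under it, at 1.25 and -1.68 (limma adjusted p = 0.00264 and 0.0106). The related lists, iron-sulfur cluster assembly among them, were not counted under centring.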

How the data were processed

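Per the submitters' processing notes the genome build was mm9 and the tools were Subread, featureCounts 1.4.5, edgeR and limma; their roles and order are unknown here. The submitters deposited 4 tables of protein-coding genes past their own adjusted p, each holding log2 CPM of all 15 libraries beside fold changes on the log2 scale. The p-values and score columns (moderated t, log odds) were computed by the authors before deposit; no score was used. The union held 11551 genes after merging 152 duplicate rows; values below 1000 reads returned to whole reads within 0.05 for 100% of them. The column of Art replicate 3 differs from its label by 1 character. Depth limits the low genes: Slc40a1 had 5 to 53 reads per library.

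Each comparison was fitted in limma 3.58.1 (R 4.3.3) on the log2 CPM of its 6 libraries, with a mean-variance trend, two-sided, with Benjamini-Hochberg adjustment over 11551 genes; the difference between hairpin-label effects used 12 libraries. The fit was tested on simulated data with a common dispersion and no library that stands apart. That test therefore does not cover the effect of Art replicate 3 or Rag_SPIC_tet_DOX replicate 2. A fold change is the mean of the group named first minus that of the second, on the log2 scale with 0.5 reads added. Same-numbered libraries did not pair (correlations of deviations -0.23 to 0.20), so no block was used. Alternatives were a replicate block, array weights, centring, 2 added reads, a filter at mean log2 CPM of 1, voom weights on the recovered reads, one fit over 15 libraries and leaving out each library. Length is that of the longest principal transcript of GENCODE M21 (GRCm38); Slc11a2 had none tagged so and was left out. Named are the 10 genes, up to 3 called genes per related list and comparison by largest absolute fold change, Spic, Spi1, Spib, Bclaf1, Myc, defining cell markers and the 5 genes nearest in level to Hmox1 and to Slc40a1. The genes and lists were chosen with earlier results of these data known. Some genes that this rule names are not reported here. The T-cell and NK list (3 of 11 in the tables) had a summed CPM of 124 to 154 in Art, 26.0 to 28.4 in Art_shBCLAF1 and 50.1 to 87.5 in the other groups.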

Additional observations from a re-analysis of the deposited data

Results flagged for a closer look

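For Slc40a1, the test of the difference between the shBCLAF1 label's effects in the 2 lines passed with all libraries: -1.39 on the log2 scale (SE 0.45, limma adjusted p = 0.0365). The effect was -1.45 in Art_shBCLAF1 against Art and -0.06 in Rag_SPIC_tet_DOX_shBCLAF1 against Rag_SPIC_tet_DOX, whose control libraries were already at 12 to 15 reads. The label's libraries had 5 to 13 and 11 to 17 reads. The call was lost in 9 of 12 fits that left out 1 library and with the replicate block (limma adjusted p = 0.0523). Without Art replicate 3 the difference was -1.40 (limma adjusted p = 0.0319), and without Art_shBCLAF1 replicate 3, which had 5 reads, it was -1.06 (limma adjusted p = 0.0702).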

How the results depend on the processing

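Counts of called genes among the 10 depended on the processing, and the cause was not tested. With array weights they were 5 in Art against Rag_SPIC_tet_NoDOX, 9 in Rag_SPIC_tet_DOX against Rag_SPIC_tet_NoDOX, 6 in Rag_SPIC_tet_DOX_shBCLAF1 against Rag_SPIC_tet_DOX, 5 in Art_shBCLAF1 against Art and 7 for the difference between label effects; 3 of these 5 weight estimates stopped short of their convergence tolerance. The 23 fold changes of these genes in the authors' deposited tables lay a median of 0.0068 (log2) from the array-weight values and 0.131 from the unweighted ones. With one fit over 15 libraries the counts were 1, 1, 2 and 4 in those comparisons and 3 for the difference. Of all genes, that fit called 16.9%, 10.0%, 39.8%, 63.8% and 37.5% in the same order. Array weights called 56.7%, 74.4%, 87.2%, 85.2% and 79.3% of all genes. A filter at mean log2 CPM of 1, which drops Slc40a1, gave 1 with doxycycline, 1 in Art_shBCLAF1 against Art and 0 for the difference. The shares called among the genes kept were 11.9%, 48.3% and 30.8%. Centring and voom weights gave 2 for the difference, beside 30.8% and 33.1% of all genes. With the replicate block the counts were 0 in Rag_SPIC_tet_DOX against Rag_SPIC_tet_NoDOX and 0 for the difference, beside 1.30% and 29.4% of all genes. They were 0 in Art against Rag_SPIC_tet_NoDOX, beside 0.00%, and 3 and 2 in the comparisons by label, beside 44.8% and 41.4%. Under the block, 3 of the 10 genes had an unadjusted p below 0.05 with doxycycline. The block's numbers do not pair the samples. Leaving out 1 library gave 0 to 5 calls in Art against Rag_SPIC_tet_NoDOX and 0 to 5 in Rag_SPIC_tet_DOX against Rag_SPIC_tet_NoDOX. It gave 3 to 6 and 1 to 4 in the comparisons by label and 0 to 4 for the difference. The shares of all genes called moved too. In the same order they were 0.00% to 47.4%, 0.104% to 39.6%, 34.2% to 65.6%, 32.4% to 80.1% and 23.1% to 54.4%.

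Signs turned under array weights in Art against Rag_SPIC_tet_NoDOX for Hmox1 (-0.029), Blvra (0.071), Blvrb (-0.52), Tfrc (0.15), Fth1 (-0.067) and Ireb2 (0.21), and under centring for Ftl1 (0.026). They turned under array weights for Ftl1 with doxycycline (0.0023), for Hmox1 (0.072), Slc11a2 (0.086) and Ireb2 (-0.035) in Art_shBCLAF1 against Art, and for Blvrb (0.54) and Ireb2 (-0.012) in the difference between label effects, where Ftl1 turned under centring (-0.038). Leaving out 1 library gave, in Art against Rag_SPIC_tet_NoDOX, -0.040 to 0.17 for Hmox1, -0.35 to 0.0023 for Blvra, -0.55 to 0.67 for Blvrb, -0.56 to 0.21 for Tfrc, -0.11 to 0.73 for Fth1, -0.10 to 0.016 for Ftl1 and -0.84 to 0.24 for Ireb2. In Rag_SPIC_tet_DOX_shBCLAF1 against Rag_SPIC_tet_DOX it gave -0.48 to 1.37 for Hmox1, -0.16 to 0.052 for Slc40a1, -0.35 to 0.13 for Fth1 and -0.089 to 0.037 for Ireb2. In Art_shBCLAF1 against Art it gave -0.18 to 0.049 for Hmox1, -0.21 to 0.051 for Slc11a2 and -0.066 to 1.02 for Ireb2. For the difference it gave -1.45 to 0.40 for Hmox1, -0.60 to 0.62 for Blvrb, -0.84 to 0.0039 for Fth1 and -0.044 to 1.04 for Ireb2. Over all genes, limma called 594, 1367, 6186, 5664 and 3621 in Art against Rag_SPIC_tet_NoDOX, the doxycycline comparison, the comparisons by label in the Rag and Art lines and the difference; array weights called 6547, 8589, 10078, 9839 and 9159. The block called 0 and 150 in the first pair, one fit 1957 in the first, and without Rag_SPIC_tet_NoDOX replicate 1 the doxycycline comparison called 12. In the fit without library weights, none of these sign-turned genes was called with all libraries in the comparison where its sign turned. Array weights called some of them there, Blvrb and Ireb2 in Art against Rag_SPIC_tet_NoDOX among them.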
